A study of Mus musculus with 36 samples.

Results

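Cyclin-dependent kinase (CDK) inhibitors are small proteins that hold back the kinases of the cell cycle, and their transcripts are often used as markers of quiescence in hematopoietic stem cells. The inhibitor genes followed here were Cdkn1a, Cdkn1b, Cdkn1c, Cdkn2a, Cdkn2b, Cdkn2c, Cdkn2d and Cdkn3. They were chosen by name, as the mouse members of the CIP/KIP and INK4 families together with Cdkn3, and are 8 of the 38887 genes of the count table.

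The CIP/KIP proteins p21 (Cdkn1a), p27 (Cdkn1b) and p57 (Cdkn1c) bind cyclin-CDK complexes of several phases, while the INK4 proteins p16 (Cdkn2a), p15 (Cdkn2b), p18 (Cdkn2c) and p19 (Cdkn2d) bind CDK4 and CDK6 alone and keep them from their D-type cyclins. Cdkn3 encodes KAP, a phosphatase that removes an activating phosphate from CDK2 and belongs to neither family. In bone marrow, p57 is known for its part in keeping long-term stem cells out of cycle, and p21 is the classical target of the transcription factor p53.

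The study asked how the receptor of interleukin-27, encoded by Il27ra, bears on stem cells in mice prone to atherosclerosis and aortic aneurysm. All mice lacked Apoe, and their Il27ra was intact (labelled WT, written here as Apoe-/-), heterozygous (Apoe-/-Il27ra+/-) or absent (Apoe-/-Il27ra-/-). The diet was Western for 12 weeks from 8 weeks of age, and the mice received angiotensin II (Ang II) or PBS by infusion during the final 2 weeks. From the lineage-negative, Sca-1+ and c-Kit+ cells of their marrow 5000 per library were sorted, those with CD150 and without CD48 as long-term hematopoietic stem cells (LT-HSCs) and those with CD48 and without CD150 as the multipotent progenitors HPC-1 (ST-HSC in the labels), and total RNA was sequenced.

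The 36 libraries fall into 12 groups. LT-HSCs gave 17 libraries, of which PBS contributed 1 Apoe-/-, 3 Apoe-/-Il27ra+/- and 3 Apoe-/-Il27ra-/- libraries, and Ang II contributed 2, 4 and 4 in the same order. HPC-1 gave 19 libraries, with 2, 3 and 3 under PBS and 3, 4 and 4 under Ang II. Total counts ran from 1980283 to 6861078 in LT-HSCs (median 2560838) and from 2272026 to 6318379 in HPC-1 (median 3254832). The labels give neither sex nor batch, and nothing in them says that replicates were separate animals, so p-values measure the spread between these samples, which may be technical. The publication counts mice, in numbers that do not match all of these groups. Levels are CPM, counts relative to the library total after TMM scaling, and a level resting on at most 3 counts, which is 0.398 to 1.49 CPM depending on the library, was taken as not detected. These floors cover counting error only.

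Il27ra itself was read as the check of the genotype. In LT-HSCs under Ang II it stood at 42.8 and 51.7 CPM (Apoe-/-), at 30.1, 25.4, 27 and 32.8 (Apoe-/-Il27ra+/-) and at 16.3, 11.6, 16.1 and 19.3 (Apoe-/-Il27ra-/-), so that the 3 genotypes did not overlap. The knockout was 1.56 log2 units below Apoe-/- there (log2 fold change -1.56, SE 0.319, adjusted p = 0.0195 in the quasi-likelihood test of edgeR with Benjamini-Hochberg adjustment), and counts remained in the knockout. Il27ra overlaps Palm3 on the opposite strand, and reads of this pair cannot be told apart where counting ignored strand, so the remaining counts need not be Il27ra transcripts. Under PBS the LT-HSC libraries read 42.7, 23.8 and 25.5 CPM (Apoe-/-Il27ra+/-) and 9.41, 6.93 and 16.3 (Apoe-/-Il27ra-/-). The library labelled LT-HSC PBS Apoe-/- replicate 1, the only one of its group, read 17.1 CPM, which lies with the knockout libraries and against its label. Its Agr2 (33.3 CPM), a gene chosen after its values were seen, lies with the other LT-HSC libraries labelled Apoe-/- (28.9 and 22.9 CPM). Agr2 does not read the Il27ra genotype and cannot check the label. The label was used as given and remains in doubt. In HPC-1, where Il27ra was lower, the genotypes overlapped, with 8.26 and 11.9 CPM (PBS Apoe-/-), 6.69, 11.1 and 8.33 (PBS Apoe-/-Il27ra-/-), 10.2, 8.87 and 6.06 (Ang II Apoe-/-) and 6.63, 5.91, 4.63 and 9.03 (Ang II Apoe-/-Il27ra-/-). The HPC-1 libraries of Apoe-/-Il27ra+/- read 15.5, 11.1 and 9.95 CPM under PBS and 5.46, 9.57, 14.3 and 16.5 CPM under Ang II. The genotype of HPC-1 libraries could therefore not be checked by this gene.

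The sorted populations were checked by Slamf1 and Cd48, which encode the gated proteins CD150 and CD48. Cd48 was between 44 and 85.5 CPM in the HPC-1 libraries and at or below 4.15 CPM in 15 of the 17 LT-HSC libraries. The library labelled LT-HSC PBS Apoe-/-Il27ra-/- replicate 2 held 62.5 CPM of Cd48 and 2.36 CPM of Slamf1, values of the HPC-1 range, whereas the other LT-HSC libraries held 20.7 to 73.7 CPM of Slamf1. The library labelled LT-HSC Ang II Apoe-/-Il27ra-/- replicate 2 had the next highest Cd48, 8.18 CPM, together with the lowest remaining Slamf1, 20.7 CPM, and 2850 CPM of the proliferation gene Mki67. The main values of LT-HSCs are also given without these 2 libraries, called doubted below. In 2 HPC-1 libraries Cdkn1c was far above the rest, PBS Apoe-/-Il27ra+/- replicate 2 with 8.78 CPM and Ang II Apoe-/- replicate 3 with 8.23 CPM, beside Slamf1 of 3.9 and 8.23 CPM.

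The members lie on 6 chromosomes of mm10. Cdkn1a (ENSMUSG00000023067) is at chr17:29090976-29100727 on the plus strand, Cdkn1b (ENSMUSG00000003031) at chr6:134920401-134925513 on the plus strand and Cdkn1c (ENSMUSG00000037664) at chr7:143458339-143461050 on the minus strand. Cdkn2a (ENSMUSG00000044303), at chr4:89274471-89294653, and Cdkn2b (ENSMUSG00000073802), at chr4:89306299-89311039, are neighbours on the minus strand, and Cdkn2c (ENSMUSG00000028551) is on the same strand of that chromosome at chr4:109660876-109667189. Cdkn2d (ENSMUSG00000096472) is at chr9:21288410-21291407 on the minus strand and Cdkn3 (ENSMUSG00000037628) at chr14:46760541-46771669 on the plus strand. Cdkn2a gives rise to both p16 and the unrelated protein p19Arf from alternative first exons, which a gene count does not separate. Cdkn1c is imprinted and expressed from the maternal copy. Cdkn1a overlaps AC167363.2 and Cdkn1c overlaps Gm44732, each on the opposite strand, and since it is not stated whether counting used strand, the reads of each pair cannot be told apart.

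Compared with one another per kilobase of exon, Cdkn1b had the highest mean of the 8 in both cell types. Its mean was 17.3 ± 2.48 CPM per kb in LT-HSCs (SD, n = 17) and 16.6 ± 2.87 in HPC-1 (SD, n = 19), and it exceeded the member with the next mean, Cdkn2d and Cdkn2c, in 17 of 17 and 19 of 19 libraries. In the LT-HSC PBS Apoe-/- library Cdkn1c (15.4 CPM per kb) was above Cdkn1b (15). In LT-HSCs it was followed by Cdkn2d (9.48 ± 2.83 CPM per kb), Cdkn1c (7.62 ± 3.6) and Cdkn2c (4.55 ± 1.8), with Cdkn3 (1.5 ± 1.32) and Cdkn1a (0.609 ± 0.658) well below. Cdkn2d exceeded Cdkn1c in 10 of 17 LT-HSC libraries, so the order of this pair varied between libraries. Cdkn1c exceeded Cdkn2c in 13 of 17.

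In HPC-1 the INK4 members Cdkn2c (6.76 ± 1.86 CPM per kb) and Cdkn2d (5.84 ± 2.51) stood behind Cdkn1b, then came Cdkn1a (2.13 ± 0.804), Cdkn3 (1.96 ± 0.945) and Cdkn1c (0.833 ± 1.25). Cdkn2c was above Cdkn2d in 14 of 19 libraries and Cdkn1a above Cdkn3 in 12 of 19, and the spreads of both pairs overlapped. Summed over the 8 genes the level was 41.3 ± 5.56 CPM per kb in LT-HSCs, from 33.4 to 53.7, and 34.2 ± 5.13 in HPC-1, from 25.1 to 44.4. Of that sum p27 transcripts made up 42.1% in LT-HSCs and 48.6% in HPC-1. The share of Cdkn1c was 18.4% in LT-HSCs and 2.37% in HPC-1, that of Cdkn1a 1.51% and 6.26%, that of Cdkn2c 10.9% and 19.7%, that of Cdkn2d 22.6% and 16.7%, and that of Cdkn3 3.72% and 5.94%. These shares are means over libraries and were not tested, and Cdkn1b had the largest mean share in both populations.

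**Figure D1:**
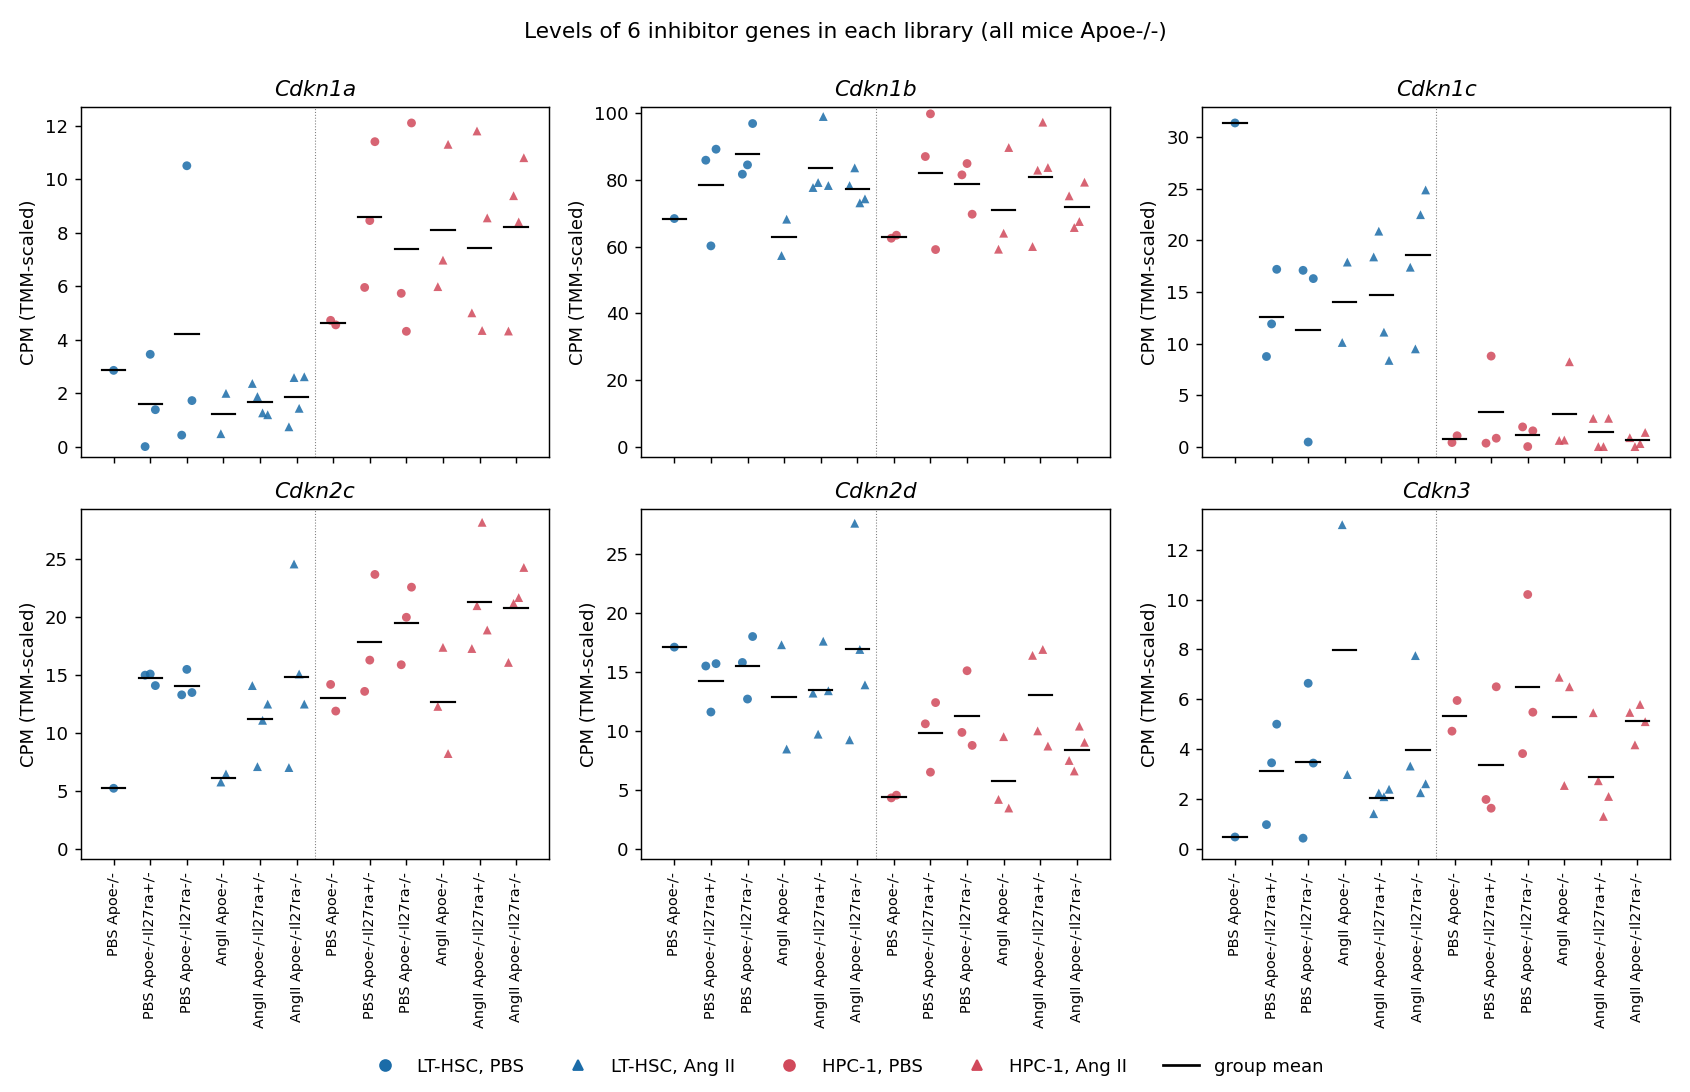
Level of 6 inhibitor genes in CPM (vertical axes, linear) in each of the 36 libraries, by agent and genotype along the horizontal axis, with LT-HSCs in blue and HPC-1 in red, circles for PBS, triangles for Ang II and black lines for group means. Cdkn1c lay at 8.36 to 31.4 CPM in all LT-HSC libraries but 1 (0.442 CPM), and Cdkn1a lay at 4.31 to 12.1 CPM in HPC-1.

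LT-HSCs were compared with HPC-1 over the 5 conditions that had at least 2 libraries of each cell type, which leaves out PBS Apoe-/- with its single LT-HSC library. Of the 18013 genes tested 36.3% differed between the cell types, 3220 higher and 3323 lower in LT-HSCs. Of the 8 members 7 passed the filter on low counts, and 4 of these 7 differed, Cdkn1c and Cdkn2d being higher and Cdkn1a and Cdkn2c lower in LT-HSCs. With a background of 36.3% such a count is no result about the members as a set. The median log2 difference was 0.02 over the 7 members and 0.03 over all genes tested. A difference in bulk RNA can come from fewer expressing cells or from less RNA per cell, which cannot be told apart here.

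Among the CIP/KIP genes, Cdkn1c had the largest fold difference between the populations. Under PBS its level in LT-HSCs was 31.4 CPM in the single Apoe-/- library, 8.74, 11.9 and 17.2 CPM (Apoe-/-Il27ra+/-) and 17.1, 0.442 and 16.3 (Apoe-/-Il27ra-/-). Under Ang II LT-HSCs held 10.1 and 17.9 CPM (Apoe-/-), 18.4, 20.9, 11.1 and 8.36 (Apoe-/-Il27ra+/-) and 17.4, 9.48, 22.5 and 24.9 (Apoe-/-Il27ra-/-). The value of 0.442 CPM belongs to the library labelled PBS Apoe-/-Il27ra-/- replicate 2, which carried Cd48 at the HPC-1 level. In HPC-1 under PBS the gene read 0.393 and 1.05 CPM (Apoe-/-), 0.331, 8.78 and 0.812 (Apoe-/-Il27ra+/-) and 1.91, 0 and 1.53 (Apoe-/-Il27ra-/-). HPC-1 under Ang II read 0.598, 0.634 and 8.23 CPM (Apoe-/-), 2.73, 0, 0 and 2.74 (Apoe-/-Il27ra+/-) and 0.864, 0, 0.29 and 1.37 (Apoe-/-Il27ra-/-). It was detected above 3 counts in 16 of 17 LT-HSC and 8 of 19 HPC-1 libraries, and 14 of the 17 LT-HSC libraries were above the highest HPC-1 library. Over the 5 conditions Cdkn1c was 8.39-fold higher in LT-HSCs (log2 fold change 3.07, SE 0.496, 95% interval 2.1 to 4.04, adjusted p = 1.03e-05 in the quasi-likelihood test of edgeR with Benjamini-Hochberg adjustment). Without the 2 libraries doubted above the difference was 3.23, and over all 40 alternatives it ran from 2.96 to 3.74.

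Cdkn1a went the other way. LT-HSCs under PBS held 2.85 CPM in the single Apoe-/- library, 0, 3.45 and 1.38 CPM (Apoe-/-Il27ra+/-) and 0.428, 10.5 and 1.72 (Apoe-/-Il27ra-/-), and under Ang II 0.481 and 1.99 (Apoe-/-), 2.36, 1.87, 1.26 and 1.19 (Apoe-/-Il27ra+/-) and 0.739, 2.58, 1.43 and 2.61 (Apoe-/-Il27ra-/-). HPC-1 under PBS held 4.72 and 4.55 CPM (Apoe-/-), 5.95, 8.45 and 11.4 (Apoe-/-Il27ra+/-) and 5.73, 4.31 and 12.1 (Apoe-/-Il27ra-/-). HPC-1 under Ang II held 5.98, 6.97 and 11.3 CPM (Apoe-/-), 5, 11.8, 4.34 and 8.55 (Apoe-/-Il27ra+/-) and 4.32, 9.38, 8.4 and 10.8 (Apoe-/-Il27ra-/-). The LT-HSC libraries lay below the lowest HPC-1 library in 16 of 17 cases, and the exception, at 10.5 CPM, was again the library labelled PBS Apoe-/-Il27ra-/- replicate 2. p21 transcripts were 4.05-fold lower in LT-HSCs (log2 fold change -2.02, SE 0.37, 95% interval -2.74 to -1.29, adjusted p = 2.65e-05 in the quasi-likelihood test of edgeR with Benjamini-Hochberg adjustment). Without the 2 doubted libraries the difference was -2.41, the largest of the 40 alternatives, which reached up to -1.88. Cdkn1a was detected above 3 counts in 13 of 17 LT-HSC and 19 of 19 HPC-1 libraries. With LT-HSC levels near the floor, the size of its fold is uncertain, here and within single conditions.

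**Figure D2:**
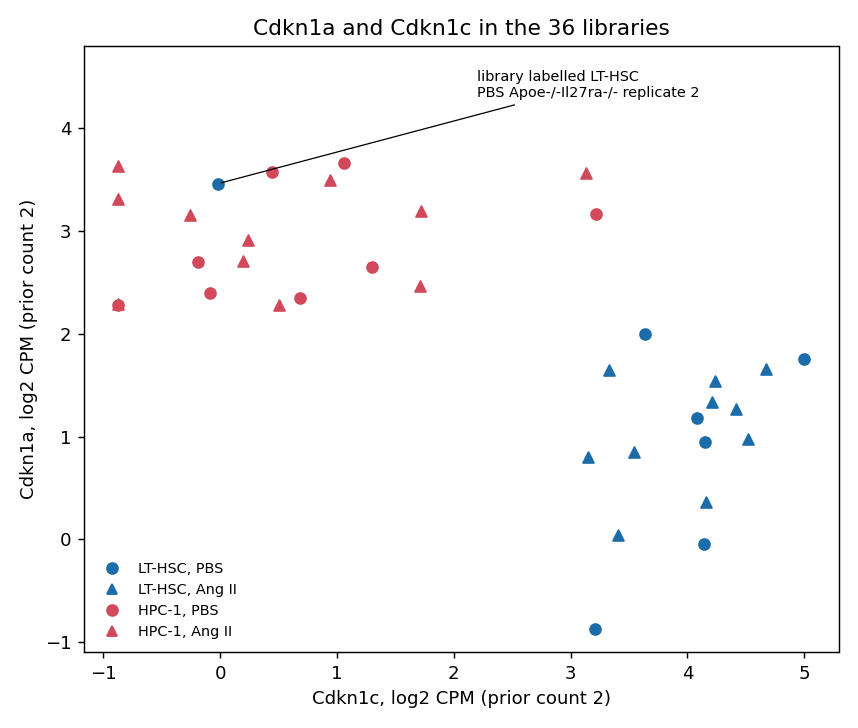
Cdkn1a (vertical axis) against Cdkn1c (horizontal axis), both as log2 CPM with a prior count of 2, in each of the 36 libraries, with LT-HSCs in blue, HPC-1 in red, circles for PBS and triangles for Ang II. The library labelled LT-HSC PBS Apoe-/-Il27ra-/- replicate 2, with 10.5 CPM of Cdkn1a and 0.442 CPM of Cdkn1c, lies among the HPC-1 libraries.

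For p27 no difference passed the test. Cdkn1b in LT-HSCs read 68.4 CPM (PBS Apoe-/-), 85.9, 60.2 and 89.2 (PBS Apoe-/-Il27ra+/-), 81.7, 84.5 and 96.9 (PBS Apoe-/-Il27ra-/-), 57.3 and 68.2 (Ang II Apoe-/-), 77.7, 79.2, 99 and 78.3 (Ang II Apoe-/-Il27ra+/-) and 78.3, 83.6, 73.1 and 74.3 (Ang II Apoe-/-Il27ra-/-). In HPC-1 it read 62.5 and 63.4 CPM (PBS Apoe-/-), 87, 99.8 and 59.1 (PBS Apoe-/-Il27ra+/-), 81.5, 84.9 and 69.7 (PBS Apoe-/-Il27ra-/-), 59.2, 64 and 89.7 (Ang II Apoe-/-), 60, 82.9, 97.3 and 83.7 (Ang II Apoe-/-Il27ra+/-) and 75.2, 65.7, 67.5 and 79.3 (Ang II Apoe-/-Il27ra-/-). The gene lay between 57.3 and 99 CPM in LT-HSCs (median 78.3) and between 59.1 and 99.8 CPM in HPC-1 (median 75.2), ranges that nearly coincide. Its log2 fold change was 0.02 (SE 0.0885, 95% interval -0.16 to 0.19, adjusted p = 1 in the quasi-likelihood test of edgeR with Benjamini-Hochberg adjustment), the narrowest interval among the members. The estimate was -0.01 when LT-HSC Ang II Apoe-/- replicate 2 or HPC-1 Ang II Apoe-/- replicate 1 was left out.

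Of the INK4 genes, Cdkn2c was lower in LT-HSCs. Under PBS LT-HSCs held 5.23 CPM in the single Apoe-/- library, 15, 15.1 and 14.1 CPM (Apoe-/-Il27ra+/-) and 13.3, 15.5 and 13.5 (Apoe-/-Il27ra-/-), and under Ang II 5.77 and 6.47 (Apoe-/-), 14.1, 7.1, 11.1 and 12.5 (Apoe-/-Il27ra+/-) and 7.02, 24.6, 15.1 and 12.5 (Apoe-/-Il27ra-/-). HPC-1 held 14.2 and 11.9 CPM (PBS Apoe-/-), 13.6, 16.3 and 23.7 (PBS Apoe-/-Il27ra+/-) and 15.9, 20 and 22.6 (PBS Apoe-/-Il27ra-/-). With Ang II HPC-1 held 12.3, 17.4 and 8.23 CPM (Apoe-/-), 17.3, 21, 28.2 and 18.9 (Apoe-/-Il27ra+/-) and 16.1, 21.2, 21.7 and 24.3 (Apoe-/-Il27ra-/-). The ranges overlapped, yet 16 of 17 LT-HSC libraries were below the HPC-1 median, the exception being the library labelled Ang II Apoe-/-Il27ra-/- replicate 2 with 24.6 CPM. p18 transcripts were 1.56-fold lower (log2 fold change -0.65, SE 0.168, 95% interval -0.97 to -0.32, adjusted p = 0.00204 in the quasi-likelihood test of edgeR with Benjamini-Hochberg adjustment), with a log2 fold change of -0.72 without the 2 doubted libraries.

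Cdkn2d, like Cdkn2c above 3 counts in all libraries, was higher in LT-HSCs. There it read 17.1 CPM (PBS Apoe-/-), 15.5, 11.6 and 15.7 (PBS Apoe-/-Il27ra+/-), 15.8, 12.7 and 18 (PBS Apoe-/-Il27ra-/-), 17.3 and 8.46 (Ang II Apoe-/-), 13.2, 9.72, 17.6 and 13.4 (Ang II Apoe-/-Il27ra+/-) and 9.24, 27.6, 16.9 and 13.9 (Ang II Apoe-/-Il27ra-/-). HPC-1 under PBS read 4.32 and 4.55 CPM (Apoe-/-), 10.6, 6.5 and 12.4 (Apoe-/-Il27ra+/-) and 9.87, 15.1 and 8.77 (Apoe-/-Il27ra-/-). HPC-1 under Ang II read 4.19, 9.51 and 3.46 CPM (Apoe-/-), 16.4, 10, 16.9 and 8.71 (Apoe-/-Il27ra+/-) and 7.49, 6.6, 10.4 and 9.03 (Apoe-/-Il27ra-/-). The populations overlapped, with 16 of 17 LT-HSC libraries above the HPC-1 median. p19 transcripts of the INK4 kind were 1.56-fold higher in LT-HSCs (log2 fold change 0.65, SE 0.193, 95% interval 0.27 to 1.02, adjusted p = 0.00719 in the quasi-likelihood test of edgeR with Benjamini-Hochberg adjustment), with 0.61 without the 2 doubted libraries, so that these INK4 genes differed in opposite directions.

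The remaining INK4 genes were near the limit of detection. Cdkn2a gave 3 counts in 1 of the 17 LT-HSC libraries (0.398 CPM) and 5 counts in 1 of the 19 HPC-1 libraries (1.74 CPM), was at 0 in the others, did not pass the filter and was not tested. A count of 0 allows a level of up to 0.398 to 1.49 CPM here. Cdkn2b was above 3 counts in 3 LT-HSC and 0 HPC-1 libraries, with 24 and 5 counts in all, and its highest value, 3.8 CPM, was in the single LT-HSC PBS Apoe-/- library. Both cell types lay at the floor in most libraries, so no fold is given. Cdkn2b passed the filter and is counted among the 7 members tested and in their median, but its counts allow no useful comparison. Neither p16 nor p15 levels could be compared in a useful way at this depth.

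Cdkn3, the phosphatase, stood in LT-HSCs at 0.475 CPM (PBS Apoe-/-), 0.971, 3.45 and 5 (PBS Apoe-/-Il27ra+/-), 0.428, 6.64 and 3.44 (PBS Apoe-/-Il27ra-/-), 13 and 2.98 (Ang II Apoe-/-), 1.41, 2.24, 2.09 and 2.39 (Ang II Apoe-/-Il27ra+/-) and 3.32, 7.75, 2.25 and 2.61 (Ang II Apoe-/-Il27ra-/-). In HPC-1 it stood at 4.72 and 5.95 CPM (PBS Apoe-/-), 1.98, 1.63 and 6.5 (PBS Apoe-/-Il27ra+/-), 3.82, 10.2 and 5.48 (PBS Apoe-/-Il27ra-/-), 6.88, 2.54 and 6.5 (Ang II Apoe-/-), 5.46, 2.73, 1.3 and 2.1 (Ang II Apoe-/-Il27ra+/-) and 5.47, 4.17, 5.79 and 5.1 (Ang II Apoe-/-Il27ra-/-). The groups overlapped and the level ran from 0.428 to 13 CPM in LT-HSCs (median 2.61) and from 1.3 to 10.2 CPM in HPC-1 (median 5.1). Its highest value was in LT-HSC Ang II Apoe-/- replicate 1. The log2 fold change was -0.23 (SE 0.34, 95% interval -0.9 to 0.43, adjusted p = 0.712 in the quasi-likelihood test of edgeR with Benjamini-Hochberg adjustment), and -0.49 without the 2 doubted libraries.

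Depth differed among libraries, 11 of them holding over 4e6 counts, and the differences between mean log2 levels of LT-HSCs and HPC-1 were therefore also read on each side of that value. They were 3.51 under and 2.4 over it for Cdkn1c, -1.89 and -2.07 for Cdkn1a, -0.67 and -0.71 for Cdkn2c, 0.72 and 0.64 for Cdkn2d, -0.64 and -0.41 for Cdkn3 and -0.03 and 0.22 for Cdkn1b. The libraries over that value include the doubted LT-HSC PBS Apoe-/-Il27ra-/- replicate 2, with 0.442 CPM of Cdkn1c. The values without it were not computed. Over 4e6 counts were 7 LT-HSC and 4 HPC-1 libraries. All libraries labelled Apoe-/- lay under that limit, so the sides also differed in genotype.

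**Figure D3:**
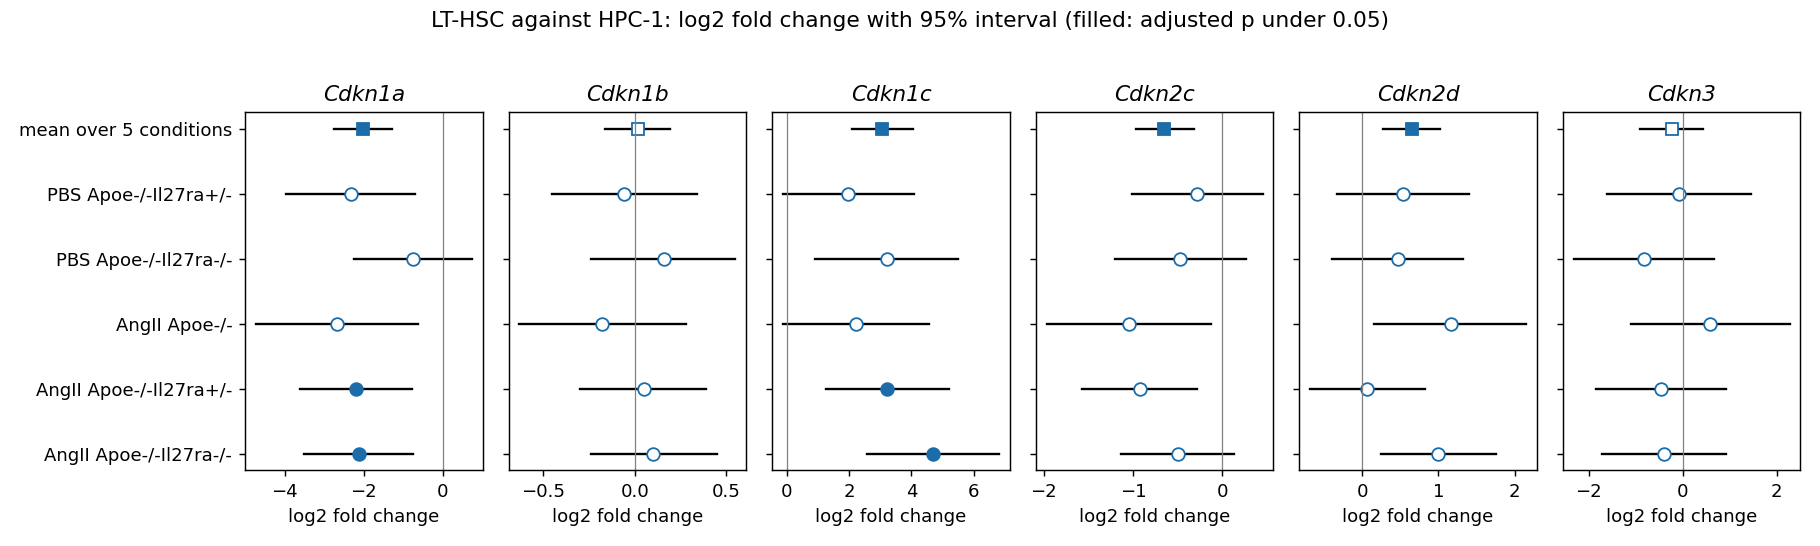
Log2 fold change of LT-HSCs against HPC-1 (horizontal axes, linear, each gene with its own range) with 95% interval as lines, for the mean over 5 conditions (squares) and each condition (circles), where filled marks passed the test at an adjusted p of 0.05. The mean was 3.07 for Cdkn1c and -2.02 for Cdkn1a, and that of Cdkn1b was 0.02.

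Within single conditions fewer differences passed the test. Under Ang II in Apoe-/-Il27ra+/- mice 14.9% of all genes and 2 of 7 members differed between LT-HSCs and HPC-1. Cdkn1a was lower (log2 fold change -2.19, SE 0.725, adjusted p = 0.0342 in the quasi-likelihood test of edgeR with Benjamini-Hochberg adjustment) and Cdkn1c higher (log2 fold change 3.23, SE 1.01, adjusted p = 0.0275 by the same test). For Cdkn1a the quasi-likelihood test of edgeR with Benjamini-Hochberg adjustment was no longer passed without LT-HSC replicate 2 (adjusted p = 0.067), 3 (0.0934) or 4 (0.11) or HPC-1 replicate 2 (0.106) or 4 (0.0632), within a range of 0.00884 to 0.11 over its alternatives. For Cdkn1c the quasi-likelihood test of edgeR with Benjamini-Hochberg adjustment was no longer passed without LT-HSC replicate 2 (adjusted p = 0.0648) or HPC-1 replicate 2 (0.0766) or 3 (0.0665), within a range of 1.08e-05 to 0.0766. Cdkn2c had a log2 fold change of -0.92 with an adjusted p of 0.0506 in the quasi-likelihood test of edgeR with Benjamini-Hochberg adjustment, and of -1.04 with 0.0475 when LT-HSC replicate 1 was left out, within a range of 0.0203 to 0.174. Cdkn2c was also called with the Y-linked covariate, with the replicate block and by DESeq2. DESeq2 called 3 members there, among 3265 genes in all. With 2 of 4 HPC-1 libraries at 0 CPM of Cdkn1c the size of its fold is uncertain.

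Under Ang II in Apoe-/-Il27ra-/- mice 12.5% of all genes and 2 of 7 members differed. Cdkn1c was higher (log2 fold change 4.69, SE 1.08, adjusted p = 0.00408 in the quasi-likelihood test of edgeR with Benjamini-Hochberg adjustment) and passed under all of its 15 alternatives, with adjusted p between 3.69e-10 and 0.0222. Without the 2 doubted libraries the estimate was 4.88. The HPC-1 libraries held 0.864, 0, 0.29 and 1.37 CPM there, 1 of 4 above 3 counts, so the size of this fold is uncertain. Cdkn1a was lower (log2 fold change -2.12, SE 0.706, adjusted p = 0.0406 in the quasi-likelihood test of edgeR with Benjamini-Hochberg adjustment), and that call was lost without LT-HSC replicate 1 (adjusted p = 0.135), 3 (0.113) or 4 (0.0711) or HPC-1 replicate 2 (0.0794), 3 (0.0824) or 4 (0.0851) in edgeR's test with Benjamini-Hochberg adjustment, within a range of 0.0123 to 0.135. Cdkn2d had a log2 fold change of 1 (adjusted p = 0.0815 in the quasi-likelihood test of edgeR with Benjamini-Hochberg adjustment) and of 1.23 (0.0483) without the LT-HSC library of replicate 1, within a range of 0.0189 to 0.307. DESeq2 again called 3 members, among 2781 genes in all. Without the 2 doubted libraries Cdkn1a was at -2.29 and Cdkn2d at 0.67.

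In the 3 other conditions 0 of 7 members passed edgeR's test. With the replicate block Cdkn1c passed in PBS Apoe-/-Il27ra+/- and in Ang II Apoe-/- mice. Without the filter on low counts it passed in PBS Apoe-/-Il27ra-/- and in Ang II Apoe-/- mice. In PBS Apoe-/-Il27ra+/- mice, where 7.67% of all genes differed, 1 member had an unadjusted p under 0.05, beside 22% of all genes, and DESeq2 called 1 member among 1842 genes, Cdkn1a (adjusted p = 0.0368 by DESeq2 with Benjamini-Hochberg adjustment, beside 0.0753 by edgeR's quasi-likelihood test with the same adjustment, within a range of 0.0354 to 0.239 over the alternatives). The edgeR estimates were -2.33 for Cdkn1a and 1.98 for Cdkn1c, the former being -3.29 without LT-HSC PBS Apoe-/-Il27ra+/- replicate 2 (from -3.29 to -1.85 over its alternatives) and the latter 4.32 without HPC-1 PBS Apoe-/-Il27ra+/- replicate 2. Over its alternatives the adjusted p of Cdkn1c (0.283 in the quasi-likelihood test of edgeR with Benjamini-Hochberg adjustment) ran from 0.0482 to 0.533. In PBS Apoe-/-Il27ra-/- mice, where 0.883% of genes differed, 1 member had an unadjusted p under 0.05, beside 10.8% of all genes, and DESeq2 called 0 members among 450 genes. Cdkn1c was estimated at 3.22 there (adjusted p = 0.244 in the quasi-likelihood test of edgeR with Benjamini-Hochberg adjustment) and, without the library labelled LT-HSC PBS Apoe-/-Il27ra-/- replicate 2, at 3.82 (adjusted p = 0.0258), within a range of 0.000898 to 0.834. Cdkn1a was estimated at -0.76 with that library and at -2.58 without both doubted libraries.

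In Ang II Apoe-/- mice, where 10.4% of genes differed, 3 members had an unadjusted p under 0.05, beside 25.6% of all genes, and DESeq2 called 1 member among 2628 genes, Cdkn1a (adjusted p = 0.0448 by DESeq2 with Benjamini-Hochberg adjustment, beside 0.0965 by edgeR's quasi-likelihood test with the same adjustment, within a range of 0.0448 to 0.401). The edgeR estimates were -2.67 for Cdkn1a, 2.22 for Cdkn1c and -1.05 for Cdkn2c. That of Cdkn1a was -3.96 without LT-HSC replicate 2 and -1.99 without LT-HSC replicate 1, and that of Cdkn1c was 4.42 without HPC-1 replicate 3. These LT-HSC libraries held 1 and 4 counts of Cdkn1a, so the size of that fold is uncertain. The adjusted p of Cdkn1c (0.239 in the quasi-likelihood test of edgeR with Benjamini-Hochberg adjustment) ran from 0.0235 to 0.518 over its alternatives. For Cdkn2d the estimate was 1.16, and 1.78 without HPC-1 Ang II Apoe-/- replicate 2 (adjusted p = 0.0471 in the quasi-likelihood test of edgeR with Benjamini-Hochberg adjustment, within a range of 0.0471 to 0.689).

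A difference called in one condition and not in another was not shown to depend on the condition. The LT-HSC to HPC-1 difference was compared between Ang II and PBS and between Apoe-/-Il27ra-/- and Apoe-/-Il27ra+/- mice, and edgeR called 0% of all genes and 0 of 7 members in either comparison, with 0 members at an unadjusted p under 0.05 and 0 called by DESeq2, which called 0 and 8 of all genes. The Ang II minus PBS value was 1.36 (SE 1.06) for Cdkn1c and -0.61 (SE 0.741) for Cdkn1a. Without the 2 doubted libraries these were 1.15 and 0.21, so that Cdkn1a turned its direction, and without HPC-1 PBS Apoe-/-Il27ra+/- replicate 2 that of Cdkn1c was 0.19. The Apoe-/-Il27ra-/- minus Apoe-/-Il27ra+/- value was 1.35 (SE 1.05) for Cdkn1c and 0.82 (SE 0.741) for Cdkn1a. Without the 2 doubted libraries these were 1.74 and -0.18. Without LT-HSC PBS Apoe-/-Il27ra-/- replicate 2 alone Cdkn1a was at 0.3 in the former comparison and -0.11 in the latter, and without HPC-1 PBS Apoe-/-Il27ra+/- replicate 2 Cdkn1c was at 0.18 in the latter. All 4 values carried an adjusted p of 1 in the quasi-likelihood test of edgeR with Benjamini-Hochberg adjustment.

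Angiotensin II was then compared with PBS within each cell type and genotype. In LT-HSCs of Apoe-/-Il27ra+/- and of Apoe-/-Il27ra-/- mice edgeR called 0% of the 16365 genes tested and 0 of 7 members, 0 members had an unadjusted p under 0.05 and DESeq2 called 0 members. In HPC-1 of each of the 3 genotypes edgeR called 0% of 13199 genes and 0 of the 6 members tested, again with 0 at an unadjusted p under 0.05 and 0 by DESeq2. Of all genes DESeq2 called 0 and 1 in LT-HSCs and 1, 3 and 1 in HPC-1. The estimates for p27 were the most precise. Cdkn1b had a log2 fold change of 0.08 (95% interval -0.25 to 0.4) in LT-HSCs of Apoe-/-Il27ra+/- and of -0.19 (-0.51 to 0.13) in those of Apoe-/-Il27ra-/- mice (-0.27 without the 2 doubted libraries). For Cdkn1c the corresponding LT-HSC values were 0.16 (-1.23 to 1.54) and 0.75 (-0.64 to 2.14), the latter 0.36 without the 2 doubted libraries. In Apoe-/-Il27ra+/- mice the direction turned for Cdkn1b without PBS replicate 2 (-0.07) or Ang II replicate 3 (-0.02) and for Cdkn1c without PBS replicate 1 (-0.04) or Ang II replicate 2 (-0.07). For Cdkn1a the values were -0.06 (-2.06 to 1.94) and -1.22 (-3.14 to 0.7), the latter 0.48 without the doubted libraries and 0.68 without PBS replicate 2 alone. The former was 0.96 without PBS replicate 2, 0.05 and 0.08 without Ang II replicate 3 and 4, and 0.4 with a Y-linked covariate. For Cdkn1a in Apoe-/-Il27ra+/- mice the interval holds changes of over 1 log2 unit in either direction.

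Cdkn2c in LT-HSCs read -0.41 (95% interval -1.15 to 0.32) with Ang II in Apoe-/-Il27ra+/- mice, where the 4 Ang II libraries reached from 7.1 to 14.1 CPM and the 3 PBS libraries from 14.1 to 15.1 CPM, and 0.06 (-0.67 to 0.79) in Apoe-/-Il27ra-/- mice, which turned to -0.21 without the 2 doubted libraries and to -0.29 without Ang II replicate 2 alone. In HPC-1, Cdkn1a read 0.81 (95% interval -0.52 to 2.13) in Apoe-/- mice, with 5.98 to 11.3 CPM under Ang II and 4.55 to 4.72 CPM under PBS, -0.22 (-1.27 to 0.83) in Apoe-/-Il27ra+/- and 0.15 (-0.9 to 1.19) in Apoe-/-Il27ra-/- mice. The value of -0.22 turned to 0.04 without PBS replicate 3, and that of 0.15 to -0.12 without PBS replicate 2 and -0.01 without Ang II replicate 4. In the Apoe-/- mice the groups did not overlap, in a comparison that called 0% of genes. The share of all genes without overlap between such small groups was not computed, so this separation is not read as a result. The Ang II effect was also compared between Apoe-/-Il27ra-/- and Apoe-/-Il27ra+/- mice. In LT-HSCs and in HPC-1 alike edgeR called 0% of genes and 0 members, with 0 members at an unadjusted p under 0.05 and 0 by DESeq2. The difference of effects for Cdkn1a was -1.16 (-3.98 to 1.66) in LT-HSCs and 0.37 (-1.11 to 1.85) in HPC-1, and for Cdkn1c 0.6 (-1.35 to 2.54) and 0.41 (-3.7 to 4.51). In LT-HSCs the value of Cdkn1a turned to 0.54 without the 2 doubted libraries and to 0.73 without PBS Apoe-/-Il27ra-/- replicate 2 alone, and that of Cdkn1c was 0.22 without both. In HPC-1 the value of Cdkn1c turned to -0.28 without Ang II Apoe-/-Il27ra-/- replicate 4 and to -0.15 without PBS Apoe-/-Il27ra-/- replicate 2.

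Loss of the receptor was examined under Ang II in LT-HSCs against Apoe-/- and against heterozygous mice, the Apoe-/- libraries serving as controls of more than one comparison. Against Apoe-/-, Apoe-/-Il27ra-/- LT-HSCs differed in 1.69% of 16365 genes and in 0 of 7 members by edgeR, with 1 member at an unadjusted p under 0.05, beside 17.7% of all genes, and 0 called by DESeq2 among 755 genes in all. That member was Cdkn2c, at 5.77 and 6.47 CPM in Apoe-/- and 7.02, 24.6, 15.1 and 12.5 CPM in Apoe-/-Il27ra-/- libraries. The groups did not overlap, and the log2 fold change was 1.28 (SE 0.474, 95% interval 0.35 to 2.21, adjusted p = 0.163 in the quasi-likelihood test of edgeR with Benjamini-Hochberg adjustment). It was 0.93 without the 2 doubted libraries, 1 of which gave the 24.6 CPM. Apoe-/-Il27ra+/- LT-HSCs differed from Apoe-/- in 0.831% of genes and in 0 of 7 members by edgeR, with 2 members, Cdkn1b (0.43) and Cdkn3 (-1.93), at an unadjusted p under 0.05, beside 15.7% of all genes, and 0 called by DESeq2 among 420 genes in all. Cdkn2c was 0.88 there (95% interval -0.04 to 1.8). Cdkn1b stood at 57.3 and 68.2 CPM in Apoe-/- and 77.7, 79.2, 99 and 78.3 CPM in Apoe-/-Il27ra+/- libraries, and Cdkn3 at 13 and 2.98 CPM against 1.41, 2.24, 2.09 and 2.39 CPM, neither pair of groups overlapping. Without Apoe-/- replicate 1 the estimate of Cdkn3 was -0.51. The share of all genes without overlap between these groups was not computed, so these separations are not read as results.

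For p21 the genotypes overlapped in LT-HSCs. In LT-HSCs under Ang II Cdkn1a had a log2 fold change of 0.59 (95% interval -1.9 to 3.08) in Apoe-/-Il27ra-/- against Apoe-/-, which became -0.08 without Apoe-/- replicate 1, and of 0.19 (-1.68 to 2.05) against Apoe-/-Il27ra+/-, which became -0.01 without the 2 doubted libraries and -0.05 without Apoe-/-Il27ra-/- replicate 4. Against Apoe-/-, the estimate of Cdkn2d (0.4) became -0.04 without Apoe-/- replicate 2 and that of Cdkn3 (-1.02) became 0.41 without Apoe-/- replicate 1. Against Apoe-/-Il27ra+/-, that of Cdkn2d (0.32) became -0.02 without Apoe-/-Il27ra-/- replicate 2. Cdkn1c stood at 0.43 (-1.18 to 2.04) against Apoe-/- and 0.37 (-0.89 to 1.63) against Apoe-/-Il27ra+/-, and at 0.63 and 0.59 without the 2 doubted libraries. Without them Cdkn1a, Cdkn2d and Cdkn3 stood at 0.4, 0.06 and -1.55 against Apoe-/-. Under PBS the comparison of Apoe-/-Il27ra-/- with Apoe-/-Il27ra+/- LT-HSCs gave 1.35 (-0.77 to 3.46) for Cdkn1a, and -0.55 without the 2 doubted libraries. In these comparisons of Apoe-/-Il27ra-/- with Apoe-/-Il27ra+/- LT-HSCs, under Ang II and under PBS, edgeR called 0% of genes and 0 of 7 members, with 0 at an unadjusted p under 0.05 and 0 by DESeq2. Without the filter on low counts edgeR called 249 genes under Ang II and 193 under PBS.

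In HPC-1 the 6 genotype comparisons called 0 of 6 members by edgeR and 0 by DESeq2, which called 0 to 20 of all genes. The share of all genes called was 0.0152% for Apoe-/-Il27ra-/- against Apoe-/- under PBS, where 1 member, Cdkn2d (1.33, 95% interval 0.15 to 2.5), had an unadjusted p under 0.05, beside 6.55% of all genes. It was 0% under Ang II for Apoe-/-Il27ra-/- against Apoe-/-, with 1 such member, Cdkn2c (0.69, 0.04 to 1.34), beside 5.01% of all genes. It was 0% there for Apoe-/-Il27ra+/- against Apoe-/-, with 2 such members, Cdkn2c (0.72, 0.06 to 1.38) and Cdkn2d (1.14, 0.18 to 2.1), beside 7.39%. It was 0%, with 0 such members, for Apoe-/-Il27ra+/- against Apoe-/- under PBS and for Apoe-/-Il27ra-/- against Apoe-/-Il27ra+/- under either agent. Under PBS Cdkn1a did not overlap between Apoe-/-Il27ra+/- (5.95 to 11.4 CPM) and Apoe-/- HPC-1 (4.55 and 4.72 CPM). Its log2 fold change there was 0.89 (-0.43 to 2.21), and the share of all genes without overlap was not computed. Cdkn1a in Apoe-/-Il27ra-/- against Apoe-/-Il27ra+/- HPC-1 was 0.15 (-0.83 to 1.12) under Ang II and -0.22 (-1.34 to 0.89) under PBS. The former turned to -0.01, -0.03 and -0.01 without Apoe-/-Il27ra+/- replicate 1 or 3 or Apoe-/-Il27ra-/- replicate 4, and the latter to 0.04 and 0.05 without Apoe-/-Il27ra+/- replicate 3 or Apoe-/-Il27ra-/- replicate 2.

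Across agents, the 3 LT-HSC libraries labelled Apoe-/- held 5.23, 5.77 and 6.47 CPM of Cdkn2c and the 14 others 7.02 to 24.6 CPM. In HPC-1 the 5 Apoe-/- libraries held 3.46 to 9.51 CPM of Cdkn2d and the 14 others 6.5 to 16.9 CPM. These groupings over both agents were seen in the values and were not tested. Genes of intestinal epithelium, a cell type outside the gates, were more often detected in the same libraries. Of the 20 markers listed 17 were above 3 counts in each of the 3 LT-HSC Apoe-/- libraries, with sums of 1080, 1170 and 1240 CPM, against 5 to 10 markers and 466 to 725 CPM in the other LT-HSC libraries. The most abundant was Muc13 in all 36 libraries, Agr2 held 33.3, 28.9 and 22.9 CPM in the 3 libraries and at most 0.345 CPM in the other LT-HSC libraries, and Phgr1 was at 0 in all 3. Under Ang II 11 of the 18 listed genes tested were lower in Apoe-/-Il27ra-/- than in Apoe-/- LT-HSCs, and 11 of 18 were lower in Apoe-/-Il27ra+/-. In the former comparison the estimates of 13 of 13 granulocyte and monocyte markers, 4 of 4 of eosinophils and mast cells and 10 of 11 erythroid markers were positive, with 0 called by edgeR, and in the latter those of 11 of 13, 3 of 4 and 10 of 11, again with 0 called. Granulocyte and monocyte sums in the Apoe-/-Il27ra-/- libraries were 44.1 to 7390 CPM (median 61), the highest being the doubted replicate 2. Those of Apoe-/- were 39 to 39.3 CPM. Eosinophil and mast cell sums were 1.79 to 459 CPM (median 8.79) against 2.98 to 6.74 CPM. No estimate of these markers without replicate 2 is given. The 5 HPC-1 Apoe-/- libraries had 13 to 17 markers above 3 counts and sums of 607, 658, 646, 559 and 697 CPM, and the 14 other HPC-1 libraries had 4 to 9 markers and sums of 407 to 718 CPM, so that the sums overlapped there. Other markers were read in Apoe-/-Il27ra-/- against Apoe-/- HPC-1. Under PBS 0 of 11 granulocyte and monocyte, 0 of 6 eosinophil and mast cell and 2 of 11 erythroid estimates were positive. Under Ang II these were 8 of 11, 1 of 6 and 5 of 11, with 0 called under either agent. The part of these cells or transcripts in the Cdkn2c and Cdkn2d values was not tested.

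Other pathway genes were read in the same comparison of LT-HSCs with HPC-1 over 5 conditions, in which 17.9% of all genes were higher and 18.4% lower in LT-HSCs. Of 26 proliferation genes 25 were lower in LT-HSCs, with a median log2 difference of -0.81 beside 0.03 over all genes tested. The largest were Top2a, which untangles replicated DNA (-1.16, SE 0.167), the mitotic kinases Aurkb (-1.14, SE 0.217) and Bub1 (-1.07, SE 0.182) and Rrm2, a subunit of ribonucleotide reductase (-1.07, SE 0.199). Cdc20 (-0.38) was the gene that did not pass. Of 18 genes tied to quiescence of stem cells 14 were higher and 2 lower, with a median of 2.13. Socs2, a brake on cytokine signals (5.93, SE 0.499), Ndn, a growth suppressor (5.25, SE 0.453), and Egr1 (4.05, SE 0.453) were highest, Gfi1 (-1.52, SE 0.23) was lower, and Foxo3 (-0.04) and Btg2 (0) did not pass. In HPC-1 Socs2 (0.292 CPM) and Ndn (0.447 CPM) were at the floor, so the size of these folds is uncertain.

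All 9 genes of the list of G1 cyclins and kinases passed the test, 3 higher and 6 lower in LT-HSCs, with a median of -0.59. The D-type cyclins Ccnd3 (0.7, SE 0.105), Ccnd2 (0.42, SE 0.0859) and Ccnd1 (0.41, SE 0.147) were higher. Their partners Cdk6 (-1.11, SE 0.132) and Cdk4 (-0.69, SE 0.111), which INK4 proteins bind, were lower, as were the E-type cyclins Ccne2 (-1.06, SE 0.189) and Ccne1 (-0.73, SE 0.262), together with Cdc25a (-0.59) and Cdk2 (-0.36). Of 13 genes of the Rb family and E2F, the targets of these kinases and their partners, 2 were higher and 4 lower, with a median of -0.16, beside 36.3% of all genes called, so that this count says little of the list as a set. Rbl2 (0.38), which encodes p130, and Tfdp2 (0.35) were higher, and E2f8 (-0.71), E2f1 (-0.54), Rbl1 (-0.48), which encodes p107, and Tfdp1 (-0.48) were lower.

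Genes known to act on the inhibitors were mixed. Of 19 regulators 6 were higher and 5 lower in LT-HSCs, with a median of -0.04. The Notch target Hes1 (2.65 against 0.177 CPM, the latter at the floor), Klf4 (1.54, SE 0.401), Foxo1 (1.37, SE 0.198) and Smad3 (0.68, SE 0.0886) were the highest, and Cks1b (-1.09, SE 0.178), a cofactor in the degradation of p27, Myc (-0.95, SE 0.131), Ezh2 (-0.74, SE 0.104) and Tgfbr1 (-0.67, SE 0.0977) the lowest. Trp53, the gene of p53, was at 107 to 172 CPM in LT-HSCs and 132 to 188 CPM in HPC-1 and was lower in LT-HSCs (-0.23, SE 0.0699). Of 16 targets of p53 other than Cdkn1a 3 were higher in LT-HSCs and 0 lower, with a median of 0.15, beside 17.9% of all genes higher. These were Plk2 (24.7 against 0.14 CPM, the latter at the floor), Tnfrsf10b (1.14, SE 0.259) and Sesn2 (0.84, SE 0.256), whereas Mdm2 (0.05) and Ccng1 (0.15) did not pass. Between Apoe-/-Il27ra-/- and Apoe-/-Il27ra+/- LT-HSCs under Ang II Trp53 differed by 0.02 (SE 0.146).

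Genes that lie next to the members were listed for comparison. Of 16 listed 15 matched the table, Kcnq1ot1 being the other, and 13 were tested, 1 higher and 5 lower in LT-HSCs, with a median of -0.3. Phlda2, which is imprinted and near Cdkn1c, was higher in LT-HSCs like Cdkn1c, at 2.34 CPM against 0.448 CPM, a level at the floor, so its fold is not given. Near Cdkn1a, Rab44 (-6.07, SE 0.647), Cpne5 (-1.78, SE 0.695) and Srsf3 (-0.63, SE 0.0938) were lower like Cdkn1a. Mtap (-0.3, SE 0.109), next to Cdkn2a and Cdkn2b, and Nap1l4 (-0.25), near Cdkn1c, were lower.

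Markers of the sorted and of other cell types were read alongside. The 12 markers of LT-HSCs were all higher in LT-HSCs (median 3.02), and of 8 markers of HPC-1 6 were lower and 2 higher (median -3.32). Slamf1 and Cd48, on which the cells were sorted, are among them. Of 11 erythroid markers 7 were higher (median 1.44), with sums of 248 to 3610 CPM in LT-HSC and 83.6 to 757 CPM in HPC-1 libraries and Car2 or Hba-a2 the most abundant. All 7 megakaryocyte markers tested were higher (median 3), with sums of 118 to 1560 CPM and 98.7 to 195 CPM and mostly Itga2b on top. Of 14 granulocyte and monocyte markers 1 was higher and 6 lower (median 0.79), with sums of 36.4 to 7390 CPM and 273 to 1450 CPM, the highest being the library labelled LT-HSC Ang II Apoe-/-Il27ra-/- replicate 2, led by S100a9 at 2180 CPM. Of 4 lymphoid markers tested 2 were lower (median -1.19), with sums of 10.4 to 41.8 CPM in LT-HSC and 6.06 to 58.8 CPM in HPC-1 libraries. Of 6 markers of eosinophils and mast cells 4 were lower (median -3.69), with sums of 0.475 to 459 CPM and 24.8 to 138 CPM. Of 11 markers of stroma and endothelium 7 were higher and 1 lower (median 1.96), with sums of 137 to 294 CPM and 71.4 to 178 CPM, and of 19 tested of intestinal epithelium 6 were higher (median 0.3). The 4 Y-linked genes, which stand for the unlabelled sex, had a median of -0.84 and adjusted p between 0.505 and 0.701 in the quasi-likelihood test of edgeR with Benjamini-Hochberg adjustment. The part of these cell types in the inhibitor differences was not tested.

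Within each cell type the members were set beside the mean log2 level of the 26 proliferation genes, 14 relations in all. Both levels of a relation come from the same library and share its sort, depth and preparation, and depth differed among libraries. In LT-HSCs Cdkn1c ran against it (Pearson r = -0.68, Spearman rho = -0.51, n = 17), Cdkn2c with it (r = 0.62, rho = 0.61) and Cdkn1a with it (r = 0.52, rho = 0.39). The proliferation mean was 5.65 to 6.63 in 15 LT-HSC libraries and 7.24 and 7.23 in those labelled PBS and Ang II Apoe-/-Il27ra-/- replicate 2. Without the 2 libraries farthest from the median r was -0.39 for Cdkn1c, 0.46 for Cdkn2c and 0.16 for Cdkn1a, so that the relation of Cdkn1a rests on them. In HPC-1, where the proliferation mean was 6.67 to 7.7, the coefficients were 0.03 for Cdkn1c, -0.11 for Cdkn2c and 0.27 for Cdkn1a (n = 19). Cdkn1b had the most negative one there (r = -0.41, rho = -0.35, and r = -0.21 without 2 libraries).

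Among themselves the members showed few close relations within a cell type. Cdkn2c and Cdkn2d, which differed in opposite directions between the cell types, went together within them, with r = 0.73 over the 19 HPC-1 libraries and 0.48 over the 17 LT-HSC libraries (0.32 over 15 without the 2 doubted ones). The former was the highest of all pairs in HPC-1. These values pool agents and genotypes, and both genes had their lowest HPC-1 means in Apoe-/- mice. Those were 13 and 12.6 CPM of Cdkn2c and 4.44 and 5.72 CPM of Cdkn2d under PBS and Ang II. Cdkn1a and Cdkn1c together set the cell types apart, except that LT-HSC PBS Apoe-/-Il27ra-/- replicate 2 lay among the HPC-1 libraries. By labelled cell type their r was -0.39 in LT-HSCs and 0.26 in HPC-1. Without the 2 doubted libraries r in LT-HSCs was 0.55 (n = 15), so that its direction rests on them. Cdkn1b and Cdkn3 had r = -0.53 in HPC-1 and -0.17 in LT-HSCs (-0.3 without the 2 doubted libraries). These 3 correlations without the doubted libraries were chosen after seeing the data.

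The 3 genes most like each member by Pearson correlation of log2 CPM over the 36 libraries were also taken, out of 17722. These values carry the difference between cell types as well as that among libraries. Cdkn1c was closest to Slamf1 (r = 0.93), Zfr2 (0.92) and Nupr1 (0.91), of which Slamf1 encodes the CD150 of the gate. Cdkn1a was closest to Irf8 (0.89), a transcription factor of monocytes and dendritic cells, Padi2 (0.88) and Myc (0.87). Irf8 averaged 19.1 CPM in LT-HSCs and 172 CPM in HPC-1. For Cdkn2c the closest were Dck (0.85), Lrr1 (0.81) and Tmem43 (0.79), and for Cdkn2d Slc7a4 (0.74), Otud7b (0.73) and Vasp (0.72). Lower values were reached for Cdkn3, with Txnl4b (0.67), Zdhhc3 (0.66) and 4930515G01Rik (0.66), and for Cdkn1b, with Dyrk1b (0.66), the early response gene Btg2 (0.65) and Padi4 (0.64). The genes nearest to Cdkn2b, Gm10244 (0.78), Dmrta2 (0.76) and Gm15383 (0.75), were near 0 CPM like Cdkn2b.

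Promoter sequence was read for the members from RefSeq windows of build GRCm38.p6, of which 7 of the 8 genes had one, Cdkn1c being the other. In 32851 windows of 250 bases upstream of a gene's start, TATAAA was found in 12.4%, CCAAT in 33.8%, GGGCGG in 32.7% and the p53 response element, with at most 1 mismatch, in 25 windows or 0.0761%, each on both strands. For Cdkn1a, which has 2 starts, the window of the outer one is shown. It was chosen because p21 is the classical p53 target and was the detected member lower in LT-HSCs by the largest fold. This window held 1 p53 response element, in capitals. Cdkn1b is shown as the most abundant member per kilobase in both cell types, with 2 CCAAT motifs and 1 GGGCGG in capitals, and Cdkn3, outside both families, with 3 CCAAT motifs, of which 1 reads ATTGG on the strand shown, and 1 GGGCGG. Of the windows not shown, that of Cdkn2d (52 bases) held 1 CCAAT and that of the outer Cdkn2a start 1 GGGCGG. Those of Cdkn2b and of the inner Cdkn2a and Cdkn2c starts held none of these motifs. TATAAA was in no stretch searched. Bases inside annotated exons are left out. The inner Cdkn1a start and the outer Cdkn2c start had no bases outside exons and were not searched. The shares over all windows kept such bases, so the members were not measured alike. A missing motif is therefore no result. A match describes letters in the window and no binding was measured.
Cdkn1a, chr17:29090729-29090975, plus strand: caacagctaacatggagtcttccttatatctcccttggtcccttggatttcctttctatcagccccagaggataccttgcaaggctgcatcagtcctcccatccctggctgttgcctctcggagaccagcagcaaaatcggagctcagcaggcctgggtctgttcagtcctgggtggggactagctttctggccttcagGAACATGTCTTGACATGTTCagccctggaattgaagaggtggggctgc
Cdkn1b, chr6:134920151-134920400, plus strand: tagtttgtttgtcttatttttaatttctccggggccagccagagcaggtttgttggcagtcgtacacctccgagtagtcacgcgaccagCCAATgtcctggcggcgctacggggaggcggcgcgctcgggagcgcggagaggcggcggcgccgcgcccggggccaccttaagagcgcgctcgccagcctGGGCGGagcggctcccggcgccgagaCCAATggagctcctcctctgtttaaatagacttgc
Cdkn3, chr14:46760291-46760540, plus strand: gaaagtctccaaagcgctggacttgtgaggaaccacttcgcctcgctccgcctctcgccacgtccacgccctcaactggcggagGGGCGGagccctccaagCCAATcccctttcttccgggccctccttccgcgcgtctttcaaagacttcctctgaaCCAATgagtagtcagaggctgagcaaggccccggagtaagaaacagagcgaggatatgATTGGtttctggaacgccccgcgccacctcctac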

How the data were processed

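The expected counts per gene, computed by the authors on mm10 and deposited with the series, were used as given, and all were whole numbers. The deposited notes name Bowtie2 and RSEM 1.2.31, and the publication names another aligner and version. The Ensembl release is not given in the sources used here. Libraries came from the Pico Input SMARTer stranded total RNA kit. In R 4.3.3, edgeR 4.0.16 (limma 3.58.1) filtered low counts, scaled by TMM and fitted quasi-likelihood models with robust dispersion to the groups of both cell types (18013 genes), LT-HSCs (16365) and HPC-1 (13199), over 25 comparisons. A gene was called at an adjusted p under 0.05 (Benjamini-Hochberg). SE is the absolute log2 fold change over the root of F, and intervals are normal at 95%. DESeq2 1.42.0 was the other tool. Exon lengths and positions are from GENCODE M21, windows from RefSeq. All 36 columns were used. Of the 41 pairs of replicates r was 0.810 to 0.969 (median 0.922), with 0 identical columns. Members and lists were chosen with earlier results of these data known. Genes named from a list are up to 4 called genes with the largest differences in each direction, all called genes of the short lists, and well-known genes that were not called.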

Additional observations from a re-analysis of the deposited data

Results flagged for a closer look

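In 52 tests for an outlying library, each of 1 member in 1 group, where about 1 in 20 would be found by chance, 2 were found. In LT-HSCs of Ang II Apoe-/-Il27ra+/- mice Cdkn1b was 99 CPM in replicate 3 and 77.7 to 79.2 CPM in the others. In HPC-1 of Ang II Apoe-/-Il27ra-/- mice Cdkn2a was 1.74 CPM in replicate 2, from 5 counts, and 0 in the others. The single LT-HSC PBS Apoe-/- library, which entered no comparison, held 31.4 CPM of Cdkn1c beside 0.442 to 17.2 CPM in the other LT-HSC PBS libraries, and 3.8 CPM of Cdkn2b beside 0 to 0.573 CPM. Its Il27ra, 17.1 CPM, lay in the range of the knockout, while its Agr2, 33.3 CPM, lay with the other LT-HSC Apoe-/- libraries (28.9 and 22.9 CPM) and not with the rest (at most 0.345 CPM). The library labelled LT-HSC PBS Apoe-/-Il27ra-/- replicate 2 held 62.5 CPM of Cd48 and 2.36 CPM of Slamf1. The cause was not tested.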

How the results depend on the processing

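Of the 25 counts of called members, those of the mean over 5 conditions (4) and of all comparisons of agent, genotype and interaction (0) were the same in every alternative. For LT-HSCs against HPC-1 in PBS Apoe-/-Il27ra+/- mice the count moved from 0 to 1 with a Y-linked covariate, with the replicate block and with DESeq2. In PBS Apoe-/-Il27ra-/- mice it moved from 0 to 1 without the filter and without both doubted libraries, and ran from 0 to 1 over the libraries left out. In Ang II Apoe-/- mice it moved from 0 to 1 without the filter, with the replicate block and with DESeq2, and ran from 0 to 1 over the libraries left out. Over the libraries left out it ran from 0 to 3 in Ang II Apoe-/-Il27ra+/- mice (2 with all), where it was also 3 with the Y-linked covariate, the replicate block and DESeq2, and from 1 to 2 in Ang II Apoe-/-Il27ra-/- mice (2 with all, 3 with DESeq2).

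The estimate of Cdkn1b in the mean over 5 conditions (0.02) reversed to -0.01 without LT-HSC Ang II Apoe-/- replicate 2 and to -0.01 without HPC-1 Ang II Apoe-/- replicate 1. Over all 40 alternatives, of processing as well as of libraries left out, it ran from -0.01 to 0.11. In LT-HSCs under Ang II, Apoe-/-Il27ra-/- against Apoe-/-, Cdkn1a (0.59) reversed to -0.08 and Cdkn3 (-1.02) to 0.41 without Apoe-/- replicate 1, and Cdkn2d (0.4) to -0.04 without Apoe-/- replicate 2. Over the libraries left out these ran from -0.08 to 1.88, from -1.72 to 0.41 and from -0.04 to 1.01. Against Apoe-/-Il27ra+/-, Cdkn1a (0.19) reversed to -0.04 with the replicate block, -0.01 without both doubted libraries and -0.05 without Apoe-/-Il27ra-/- replicate 4, and Cdkn2d (0.32) to -0.02 without both doubted libraries and -0.02 without Apoe-/-Il27ra-/- replicate 2, with ranges over the libraries left out of -0.05 to 0.43 and -0.02 to 0.52. Several other estimates turned as well and are given so in the report. Without the filter on low counts edgeR called up to 249 of all genes in comparisons where it called 0 with it. Counting any count as detected moved Cdkn1c in HPC-1 from 8 to 15 libraries, Cdkn2a in LT-HSCs from 0 to 1 and Cdkn2b from 3 to 7 in LT-HSCs and from 0 to 3 in HPC-1. The correlation of Cdkn1a with Cdkn1c in LT-HSCs (-0.39) reversed to 0.55 without both doubted libraries, an alternative chosen after seeing the data. The cause was not tested. The fold of Cdkn2b in Apoe-/-Il27ra-/- against Apoe-/- LT-HSCs is omitted because its counts lie at the floor.

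Replicate numbers were tried as pairs between cell types. Over 16 pairs r was -0.27 to 0.4 (median 0.16), 9 being over 0.1 and 10 highest with their own number, a hint of pairing for part of the samples. The labels state no pairing and not every pair was over 0.1, so the block was kept as an alternative. The replicate block moved the count of all genes called in the mean over 5 conditions from 6543 to 6241, that of LT-HSCs against HPC-1 in Ang II Apoe-/- mice from 1868 to 1089, and in LT-HSCs under Ang II those of Apoe-/-Il27ra-/- and Apoe-/-Il27ra+/- against Apoe-/- from 277 to 97 and from 136 to 39. In PBS Apoe-/-Il27ra+/- mice that of LT-HSCs against HPC-1 moved from 1382 to 1701. It also turned Cdkn1a for Ang II against PBS in LT-HSCs of Apoe-/-Il27ra+/- mice from -0.06 to 0.46. A call lost with the block does not by itself mean a weaker effect, and the folds of the genes so lost are not given here. The 2 doubted libraries were named with earlier results of these data known.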
